A study of Mus musculus with 8 samples.

Results

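The 33 genes described here encode the mouse fibroblast growth factors (FGFs), their receptors, the Sprouty inhibitors and the FRS docking proteins. Accessible chromatin around these genes was compared between wild-type (WT) hearts and hearts in which cardiomyocytes had lost *Chd4* (*Chd4-CMko*). A peak was tied to one of these genes if the gene's transcription start site (TSS) was the nearest of any protein-coding gene, or if the peak lay within 10 kb of the gene body. Gene models were those of GENCODE M21 on mm10 (GRCm38). Of the 33 genes, 32 lie on chromosomes of that annotation and were examined, out of 21938 protein-coding genes in all. *Spry3* is placed on an unplaced scaffold on which neither peak list has a peak, and it was not analysed here.

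ATAC-seq, in which the Tn5 transposase cuts and tags open chromatin, was run on 8 samples of mouse embryonic heart at E10.5, 4 WT and 4 *Chd4-CMko*. *Chd4* encodes the remodelling helicase of the nucleosome remodelling and deacetylase (NuRD) complex. In *Chd4-CMko* embryos the floxed *Chd4* alleles (*Chd4* fl/fl) are deleted by Cre under the *Tnnt2* promoter, which is active in cardiomyocytes, and the controls were littermates. Each sample was a pool of whole hearts, given as 4 hearts per pool in the sample labels and as 3 in the description of the series, from which 40000 viable cells were taken. By this design, endocardial, epicardial, mesenchymal and blood cells of these hearts would have entered the samples and kept *Chd4*, which the deposited lists do not show. The deposited data are lists of differential peaks at a 2-fold limit, 12991 peaks that were more accessible in *Chd4-CMko* (gained) and 2745 that were more accessible in WT (lost), each with a position and a score. They hold no value per sample, so the spread between the 4 samples of a genotype and the depth behind a peak are unknown, and no test between genotypes was run. In whole hearts, fewer cells of a type and less open chromatin per cell cannot be told apart.

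FGF ligands bind receptor tyrosine kinases at the cell surface, with heparan sulfate as a cofactor, and the activated receptor signals through the FRS docking proteins to the RAS-MAPK cascade. Sprouty proteins are produced in response to the pathway and dampen it. In the forming heart, FGF8 and FGF10 act in the second heart field that builds the outflow tract and right ventricle, while FGF9, FGF16 and FGF20 from the epicardium and endocardium promote cardiomyocyte proliferation.

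Before the counts, 5 of the 13 gained peaks within 1 kb of a start site are shown. They are the 4 with the highest scores among those that lie mostly outside exons, which are rich in GC and CpG, and the *Frs2* peak, which differs from them in sequence. Coordinates are on GRCm38, and each sequence reads 5′ to 3′ on the strand of its gene. Capitals mark matches to the motifs searched, here GGGCGGG of the KLF and SP factors, with its reverse complement, and CCAATCA of NFY. Bases in annotated exons of coding genes were left out.
*Fgf8* gained peak (chr19:45743086-45743236, minus strand): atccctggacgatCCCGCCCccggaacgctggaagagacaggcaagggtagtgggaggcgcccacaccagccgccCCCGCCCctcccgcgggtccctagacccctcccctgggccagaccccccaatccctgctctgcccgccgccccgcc
*Fgf11* gained peak (chr11:69800898-69801048, minus strand): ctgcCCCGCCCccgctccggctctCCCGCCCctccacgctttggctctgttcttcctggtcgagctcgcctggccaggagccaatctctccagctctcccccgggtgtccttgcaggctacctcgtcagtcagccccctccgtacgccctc
*Fgf12* gained peak (chr16:28446481-28446631, minus strand): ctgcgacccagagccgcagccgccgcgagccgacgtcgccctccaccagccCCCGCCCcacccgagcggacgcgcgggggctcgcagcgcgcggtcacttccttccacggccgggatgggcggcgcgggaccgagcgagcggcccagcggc
*Fgf13* gained peak, part before the exon (chrX:59134437-59134584, minus strand): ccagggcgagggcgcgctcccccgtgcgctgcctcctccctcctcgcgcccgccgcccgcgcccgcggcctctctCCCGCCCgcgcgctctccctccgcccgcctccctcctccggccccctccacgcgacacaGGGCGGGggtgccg
*Frs2* gained peak (chr10:117131606-117131756, minus strand): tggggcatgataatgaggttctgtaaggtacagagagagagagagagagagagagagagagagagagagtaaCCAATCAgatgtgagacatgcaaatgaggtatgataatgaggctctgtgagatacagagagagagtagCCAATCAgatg
The *Fgf8*, *Fgf11* and *Fgf13* stretches each hold 2 KLF/SP matches and the *Fgf12* stretch holds 1. They contain 12, 11, 24 and 27 CpG dinucleotides for *Fgf8*, *Fgf11*, *Fgf13* and *Fgf12*, respectively. The *Frs2* peak stands apart, with 0 CpG, 2 NFY matches and a run of GA repeats, and 100% of its bases are soft-masked as repeat in the genome.

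The gained peak with the highest score of all these genes covers the start of *Fgfr3*, and most of it lies in the first exon. The stretch just before that exon is printed from the RefSeq promoter on GRCm38.p6, and its last 32 bases belong to the peak. Capitals mark an E-box, CAGCTG, which lies before those 32 bases and so outside the peak.
*Fgfr3* promoter (chr5:33721474-33721673, plus strand): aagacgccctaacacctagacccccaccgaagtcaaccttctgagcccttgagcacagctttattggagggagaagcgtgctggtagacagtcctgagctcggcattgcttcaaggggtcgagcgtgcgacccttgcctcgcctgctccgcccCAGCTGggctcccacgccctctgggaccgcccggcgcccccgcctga

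Gained peaks were found at 22 of the 32 genes (68.8%, 95% Wilson interval 51.4 to 82.0), whereas 37.4% of all coding genes had one by the same rule. Lost peaks were found at 7 of the 32 (21.9%, interval 11.0 to 38.8), beside 10.8% of all coding genes. This count was 3 with the 10 kb window alone and 4 with only peaks at or above the median score of the list. The shares of all coding genes under these settings are not reported here, so these counts cannot be set beside 10.8%. These intervals treat genes as independent and cover counting error only. Of the 32 genes, 17 had gained peaks only (53.1%, beside 31.0% of all coding genes). Lost peaks only were found at 2, *Fgf7* and *Fgf14* (6.25%, near the 4.41% of all coding genes). Both kinds were found at 5, *Fgf2*, *Fgf10*, *Fgfr2*, *Fgfrl1* and *Spry2* (15.6%, beside 6.36%). The remaining 8, *Fgf3*, *Fgf4*, *Fgf5*, *Fgf17*, *Fgf20*, *Fgf22*, *Fgf23* and *Fgfr1*, had neither (25.0%, beside 58.2% of all coding genes).

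Gene length bears on such counts, since a longer body takes in more peaks. The median body was 15.8 kb for the 32 genes and 17.4 kb for all coding genes. Here *Fgfr2* was counted at 104 kb, without the long transcript Fgfr2-217 described below. Among genes under 10 kb, 6 of 10 FGF genes and 23.9% of all coding genes had a gained peak. From 10 to 50 kb the values were 9 of 12 and 36.6%, from 50 to 200 kb 5 of 7 and 56.1%, and above 200 kb 2 of 3 and 75.2%. The share of FGF genes was above that of all coding genes in the 3 shorter classes. For lost peaks the values, from the shortest class to the longest, were 1 of 10 and 4.19%, 1 of 12 and 7.42%, 4 of 7 and 883 of 4010 genes, and 1 of 3 and 47.7%, so most of the genes with a lost peak had bodies of 50 to 200 kb.

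A gained peak within 3 kb of an own TSS was found at 12 of the 32 genes (37.5%, interval 22.9 to 54.7), beside 12.4% of all coding genes. Lost peaks within 3 kb of an own TSS were found at 0 of 32, which allows a share of up to 10.7% by the same interval, beside 1.24% of all coding genes. The 12 genes were *Fgf1*, *Fgf2*, *Fgf8*, *Fgf11*, *Fgf12*, *Fgf13*, *Fgf15*, *Fgf16*, *Fgfr3*, *Fgfr4*, *Fgfrl1* and *Frs2*. All 13 peaks at them (*Fgf12* has 2) lay within 1 kb of a start site. Some of these start sites lie inside the gene, away from its 5′ end, at *Fgf2*, *Fgf12*, *Fgf13*, *Fgfrl1* and *Frs2*.

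**Figure D1:**
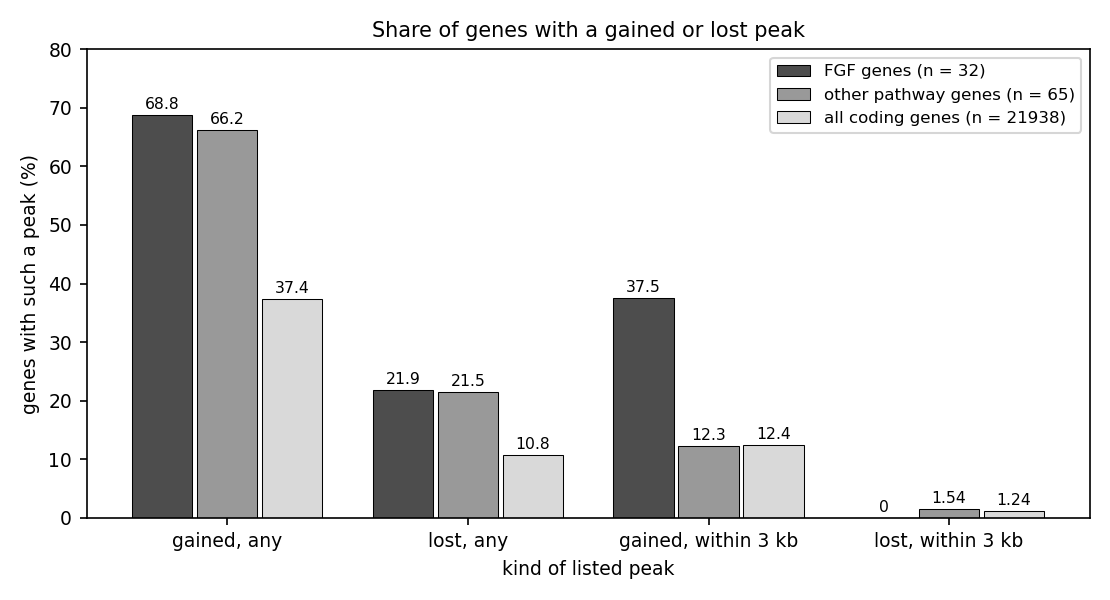
Share of genes, in percent, with a gained or lost peak anywhere by the rule or within 3 kb of an own TSS, for the 32 FGF genes, 65 other genes of the pathway and 21938 coding genes. Both gene lists stand above all coding genes for gained peaks anywhere, but near start sites the FGF genes are at 37.5% while the other pathway genes are at 12.3%, next to 12.4% for all coding genes.

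By the rule as written, 63 gained and 13 lost peaks belonged to these genes, but 25 of the gained and 5 of the lost peaks did so through a single transcript. GENCODE M21 lists 27 transcripts of *Fgfr2*, and one of them, Fgfr2-217 (support level 5), spans 2.96 Mb and takes in 30 other coding genes. The other transcripts span 104 kb (chr7:130162451-130266263), as does the RefSeq gene. The peaks tied to *Fgfr2* by Fgfr2-217 alone are nearest to other genes, such as *Hmx2*, *Chst15*, *Tacc2* and *Ctbp2*, and are not described further. Without that transcript, 38 gained and 8 lost peaks remained, at the same numbers of genes (22 and 7), and the peaks described gene by gene below are these.

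**Figure D2:**
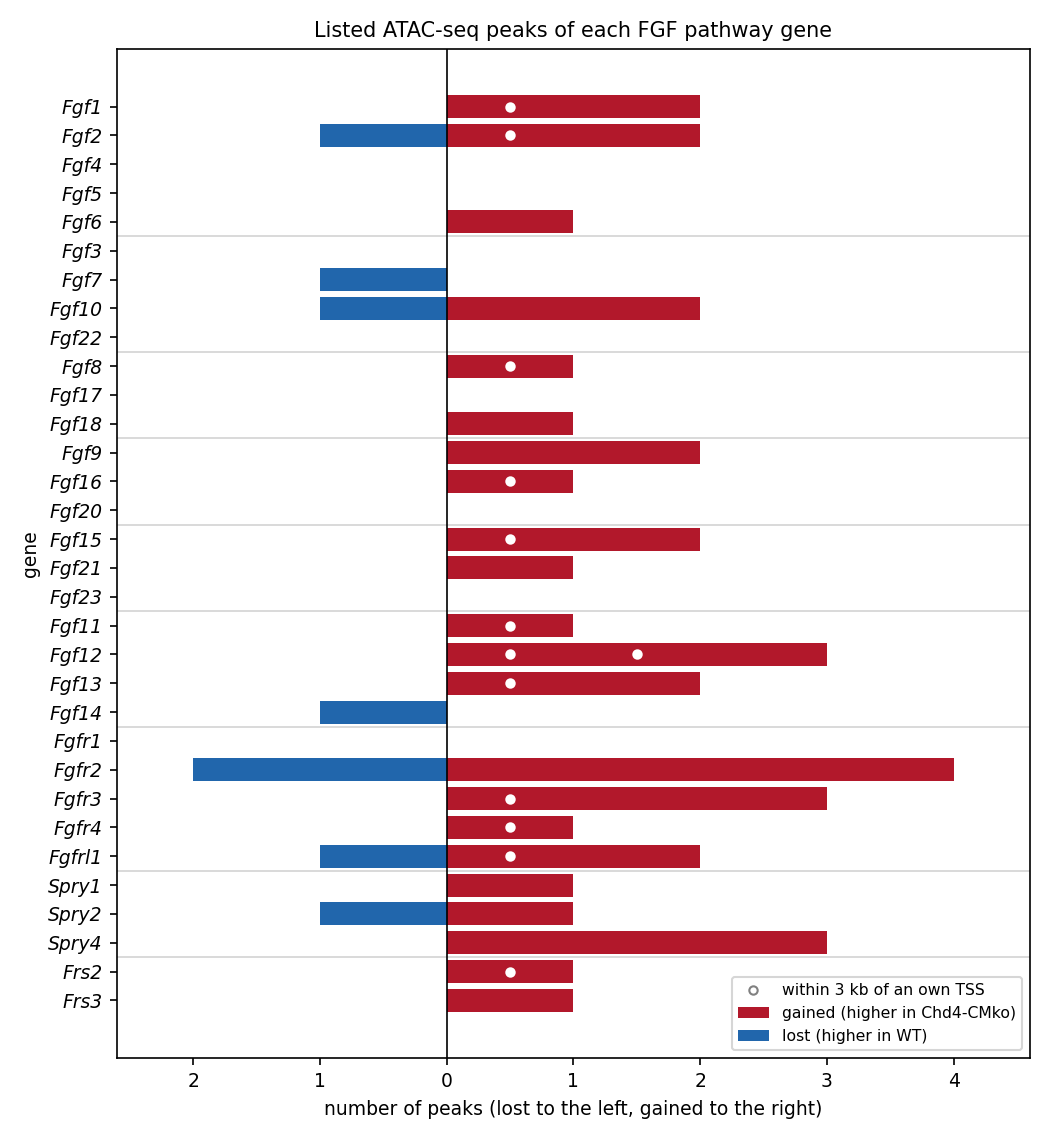
Number of gained peaks (red, to the right) and lost peaks (blue, to the left) for each of the 32 genes, ordered by family, without transcript Fgfr2-217. White dots mark gained peaks within 3 kb of an own TSS. Gained peaks reach 4 at *Fgfr2* and 3 at *Fgf12*, *Fgfr3* and *Spry4*, and no gene has more than 2 lost peaks.

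Several of the 46 peaks could belong to other genes as well. By the same rule, 7 of the 38 gained and 2 of the 8 lost peaks were also tied to another coding gene. For 18 of the 38 gained peaks the nearest start site of any annotated gene, non-coding genes included, was that of another gene. No peak lay just beyond the 10 kb limit: the closest one left out was a gained peak 29.5 kb from *Fgf11*, nearest to *Zbtb4*, and the farthest taken in by the limit alone were 7856 bp from *Fgf15* and 6186 bp from *Fgf21*.

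Among the FGF1 and FGF4 subfamilies, *Fgf1*, *Fgf2* and *Fgf6* had gained peaks, and *Fgf4* and *Fgf5* had none. *Fgf1*, a ligand for all the FGF receptors, had a gained peak 9 bp upstream of a start site with a score of 66.0, higher than 52.9% of gained peaks. Its other gained peak lay in an intron 15.5 kb from a start site and scored 60.0. Both lie within 10 kb of *Arhgap26* as well. *Fgf2*, known for its action in angiogenesis and cell growth, had a gained peak in an intron, 154 bp from an internal start site (chr3:37366686-37366836, score 43.5, 51.0% soft-masked), and one 15976 bp upstream (chr3:37332220-37332370, score 23.5). The upstream peak scored above only 1.11% of the gained list. The lost peak of *Fgf2* (chr3:37408402-37408552, score 14.8) lay in an exon at the far end of the gene, where *Nudt6* overlaps it on the opposite strand. The nearest start site there was that of *Nudt6*, at 2123 bp, and only 0.146% of lost peaks scored lower. *Fgf6*, a ligand of developing skeletal muscle, had a single gained peak in an intron 3800 bp from its start (chr6:127019386-127019536, score 48.5).

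The FGF7 subfamily, whose members signal mainly from mesenchyme to epithelium, had a lost peak at 2 of 4 genes and a gained peak at 1 of 4, beside 10.8% and 37.4% of all coding genes. *Fgf7*, the keratinocyte growth factor, had a lost peak 19.4 kb upstream (chr2:126015073-126015223) that scored 82.6, above 93.5% of lost peaks, and no gained peak. This lost peak is also tied to *Fam227b*. *Fgf10* had a gained peak in an intron 44.4 kb from a start site (chr13:118759125-118759275, score 113), with a GATA and an NKX2-5 motif match. A lower-scored gained peak lay 272 kb away (chr13:118986497-118986647, score 28.5), and a lost peak 39.9 kb upstream (chr13:118629715-118629865, score 23.4). The gained intronic peak stood above 75.9% of its list and the lost peak above 15.5% of its own. *Fgf3*, required for inner ear development, and *Fgf22*, an organizer of synapses, had no listed peak.

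In the FGF8 subfamily, *Fgf8* had a gained promoter peak. It lay 171 bp upstream of a start site and scored 196, above 91.1% of gained peaks, with a GC content of 74.8%. By the 10 kb window this peak was also tied to *Npm3* and *Mgea5*, while *Fgf8* had the nearest start site. *Fgf18*, a ligand of bone and lung development, had a gained peak in an intron 28.1 kb from its start (chr11:33118579-33118729, score 67.5), with an NKX2-5 and an NFY match. *Fgf17*, known from midbrain patterning, had none, and its nearest gained peak was 111 kb away, beside *Lgi3*.

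Of the FGF9 subfamily, *Fgf16* had a gained peak 332 bp upstream of its start site (chrX:105763797-105763947, score 55.0), below the median of the gained list (62.5). *Fgf9* had no listed peak within 10 kb of its body. It had 2 gained peaks far downstream, at 211 kb (chr14:58287531-58287681, score 25.0) and 359 kb (chr14:58435695-58435845, score 62.0), for which it had the nearest coding start site. The nearest annotated gene of any kind was in both cases the non-coding *Gm33321*, and 81.5% of the farther peak is soft-masked repeat. *Fgf20* had none, and the nearest gained peak was 321 kb from its start.

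The endocrine FGFs circulate as hormones. *Fgf15*, the regulator of bile acid synthesis, had a gained peak over its start site (chr7:144896547-144896697, score 64.5, 13 CpG) and another 12.2 kb from it that lay closer to *LTO1* (chr7:144908809-144908959, score 77.0). *Fgf15* shares this stretch of chromosome 7 with *Fgf3* and *Fgf4*, which had no peak of their own: the peak over the *Fgf15* start was the gained peak nearest to both, 58.0 kb from *Fgf3* and 35.2 kb from *Fgf4*. *Fgf21*, a metabolic hormone, was tied only to a gained peak over the start of its neighbour *Izumo1* (chr7:45621676-45621826, score 106), 6186 bp from its own. *Fgf23*, which controls phosphate, had none, and the gained peak nearest to it was the one in *Fgf6*, 53.4 kb away.

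The intracellular FGF homologous factors are not secreted and bind voltage-gated sodium channels. Of these 4 genes, 3 had a gained peak within 3 kb of a start site, beside 12.4% of all coding genes. *Fgf11* had 1, 668 bp inside the gene, with a score of 261.5 that exceeded 95.8% of gained peaks. This is a gene-dense stretch, and the peak is also within 10 kb of *Chrnb1* and *Tmem102*. At *Fgf12*, which spans 593 kb with several alternative starts, a gained peak covered the start of transcript Fgf12-202 (chr16:28564868-28565018, score 127) and another lay 204 bp before the start of Fgf12-201 (score 126). The scores of these peaks were close, above 79.7% and 79.5% of the list. The third lay 87.1 kb from a start site, beyond the 3′ end (chr16:28104814-28104964, score 58.5). At *Fgf13*, a gained peak covered the start of Fgf13-201 (chrX:59134434-59134584, score 139.5, GC content 83.4%) and a second lay in an intron 54.6 kb from a start (chrX:59220793-59220943, score 107.5), with a GATA match. *Fgf14* was the exception. It had no gained peak within 532 kb of a start site, and its lost peak, 125 kb upstream of the gene (chr14:124801673-124801823), scored 510.5, above 99.8% of lost peaks. This lost peak is 100% soft-masked as repeat, and whether reads map there uniquely was not tested.

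Of the receptor genes, *Fgfr3* had the 2 highest-scored gained peaks of all 38. It had 3 peaks, all gained. The peak over its start site (chr5:33721642-33721792) scored 563.5, above 99.9% of gained peaks, where the highest score in the list is 696.5. Another lay 26.1 kb upstream (chr5:33695406-33695556) and scored 270.5, above 96.2%; with 22 CpG and 77.5% GC it was the one distal gained peak with 10 or more CpG. The third, 9013 bp from a start site and past the 3′ end (chr5:33743618-33743768), scored 74.5, held a TEAD and an AP-1 match, and is also tied to *Letm1*. *Fgfr4* had 1 gained peak in its first exon, 72 bp from a start site (chr13:55152712-55152862), which scored 235, above 94.3% of the list, and held a TEAD and a KLF/SP match. *Fgfr1*, the main receptor of mesodermal tissue, had no listed peak: the nearest gained peak was 249 kb from a start site and belonged to *Tacc1*, and the nearest lost peak was 887 kb away.

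*Fgfr2* and *Fgfrl1* had peaks of both kinds. At *Fgfr2* none lay in the 104 kb body. Of its 4 gained peaks, 3 lay beyond the 3′ end, at 24.2 kb (chr7:130143548-130143698, score 105), 127 kb (chr7:130040670-130040820, score 71.5) and 181 kb (chr7:129987148-129987298, score 45.0) from a start site. The remaining one was upstream at 59.8 kb (chr7:130326042-130326192, score 27.5). Lost peaks lay 32970 bp upstream (chr7:130299233-130299383, score 44.3) and 183 kb downstream (chr7:129984504-129984654, score 29.7). The centres of the farthest gained and the farthest lost peak were 2644 bp apart. *Fgfrl1*, a receptor that lacks the kinase domain, had a gained peak 803 bp from an internal start site near the 3′ end of the gene (chr5:108704121-108704271, score 79.5, 1 TEAD match). The other gained peak of *Fgfrl1* lay 3947 bp from the same site, past the 3′ end (chr5:108709021-108709171, score 87.0, 1 AP-1 match). Its lost peak followed 5176 bp farther on, centre to centre (chr5:108714197-108714347, score 71.8), and stood above 89.6% of lost peaks. The *Fgfr2* and *Fgfrl1* pairs were the only gained and lost peaks of the 46 within 10 kb of one of the opposite kind.

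**Figure D3:**
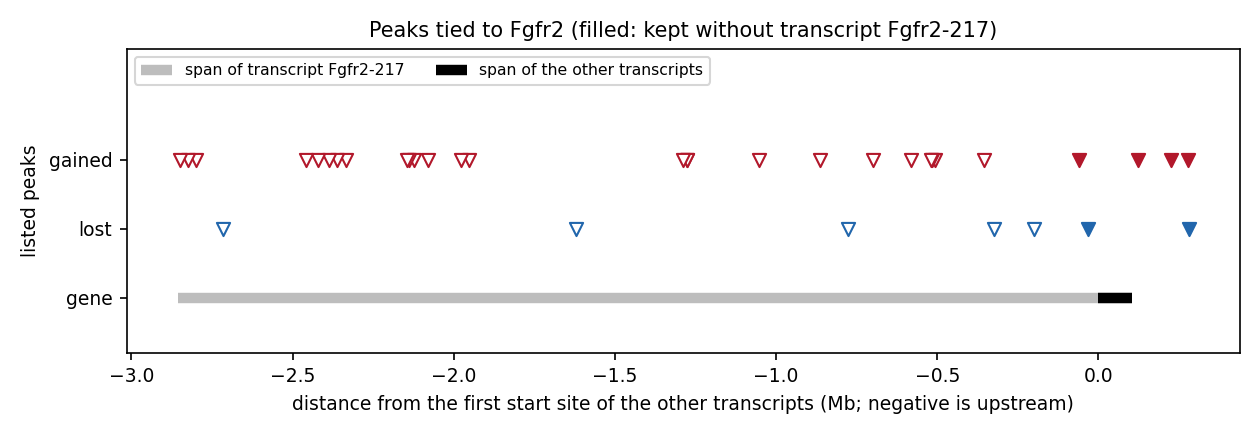
Gained (red) and lost (blue) peaks tied to *Fgfr2*, by distance in Mb from the first start site of its other transcripts, with negative values upstream. The black bar is the 104 kb span of the other transcripts and the grey bar that of Fgfr2-217. Filled triangles, 4 gained and 2 lost, are kept without Fgfr2-217, while the open ones, 25 gained and 5 lost, lie along the grey span upstream.

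All 3 Sprouty genes examined had gained peaks, beside 37.4% of all coding genes, but none within 10 kb of the gene body. They are tied to these genes only as the nearest coding start site, and with the 10 kb window alone none of the 3 would have a gained or lost peak. *Spry4* had 3, all beyond its 3′ end, at 30.8 kb (score 114.5), 56.5 kb (score 95) and 57.9 kb (score 102.5) from the start site. The 3 scores stood above 69.3% to 76.3% of the gained list. Motif matches in them were KLF/SP in the first and last, TBX in the last, SRF in the first and ETS in the middle one. *Spry1* had 1 gained peak 26.8 kb from a start site (chr3:37666917-37667067), scoring 149, above 84.4% of gained peaks. *Spry2* had a low-scored gained peak 284 kb away (chr14:105612854-105613004, score 25.0) and a lost peak 25.8 kb upstream (chr14:105922582-105922732) at 36.6, close to the median of the lost list (36.8).

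The docking proteins differed in position. The gained peak of *Frs2* lay in an intron 760 bp from an internal start site (score 78.5). It is the repeat sequence printed above, for which unique mapping was likewise not tested. The gained peak of *Frs3* lay 9951 bp from a start site, past the 3′ end (chr17:47712016-47712166, score 61.0), just under the median of its list.

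**Figure D4:**
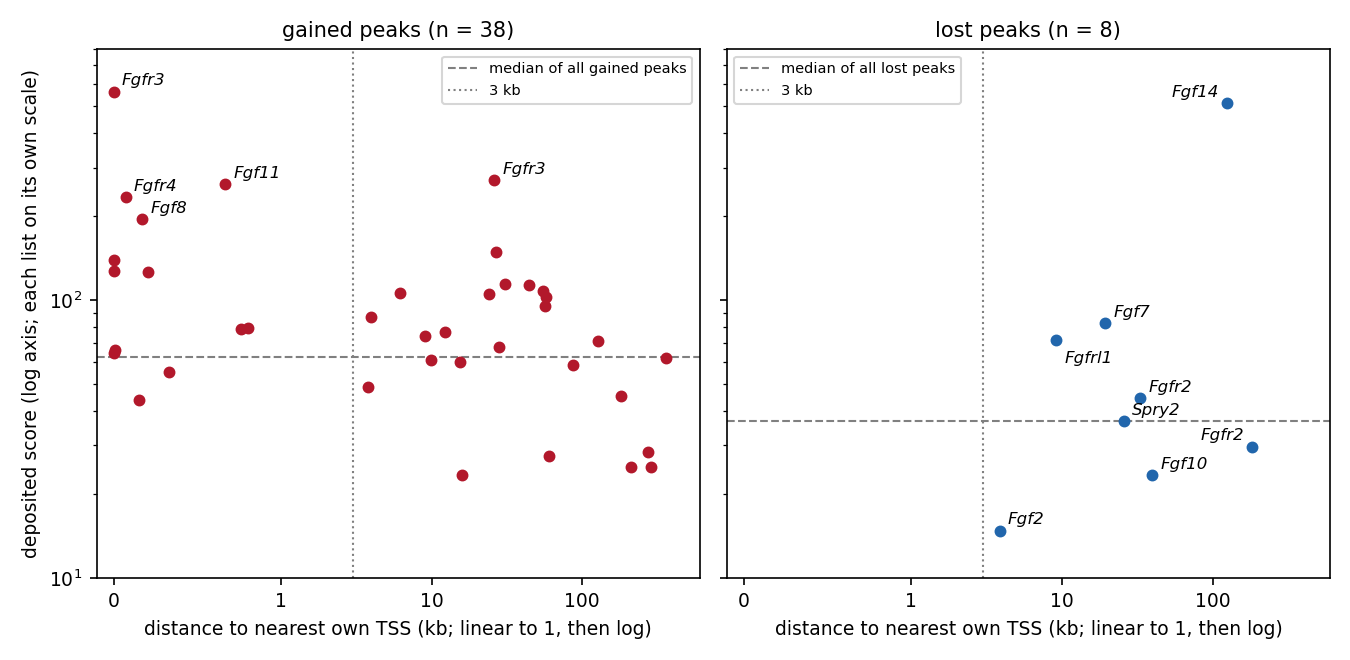
Deposited score (log axis) against the distance in kb to the nearest own TSS for the 38 gained and 8 lost peaks, without transcript Fgfr2-217. The dashed line is the median of the whole list and the dotted line marks 3 kb. The gained peaks with the highest scores, at *Fgfr3*, *Fgf11*, *Fgfr4* and *Fgf8*, sit at start sites except for the *Fgfr3* peak 26.1 kb upstream, and all lost peaks lie beyond 3 kb.

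Across the genes, 13 of the 38 gained peaks lay within 3 kb of an own start site and 25 farther away, 11 of them beyond 50 kb. The median score was 126 for the 13 and 71.5 for the 25. A like order holds in the whole gained list, where peaks within 3 kb of any TSS had a median of 99.0 and the others 54.5. Among the 38, 15 (39.5%, interval 25.6 to 55.3) were within 3 kb of any annotated TSS, and 30.9% of all gained peaks were. For the lost peaks the counts were 1 of 8 and 16.8%. Of the 38, 25 scored at or above the list's median of 62.5, and 4 of the 8 lost peaks scored at or above 36.8.

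Most start-site peaks were richer in GC than the others, though the ranges overlapped. Median GC content was 70.9% for the 13 gained peaks within 3 kb of an own TSS, 51.0% for the 25 others and 51.0% for the 8 lost peaks. All gained peaks had a median of 55.0%, those within 1 kb of a coding TSS 66.9%, and all lost peaks 50.3%. Of the 13, 9 held 10 or more CpG, against 1 of the 25 others and 0 of the 8 lost peaks. The corresponding share was 51.0% of all 2186 gained peaks within 1 kb of a coding TSS, the nearest match to the 13, which all lie within 1 kb. The 4 start-site peaks with few CpG were those of *Fgf1* (2), *Fgf2* (0), *Fgfrl1* (3) and *Frs2* (0).

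**Figure D5:**
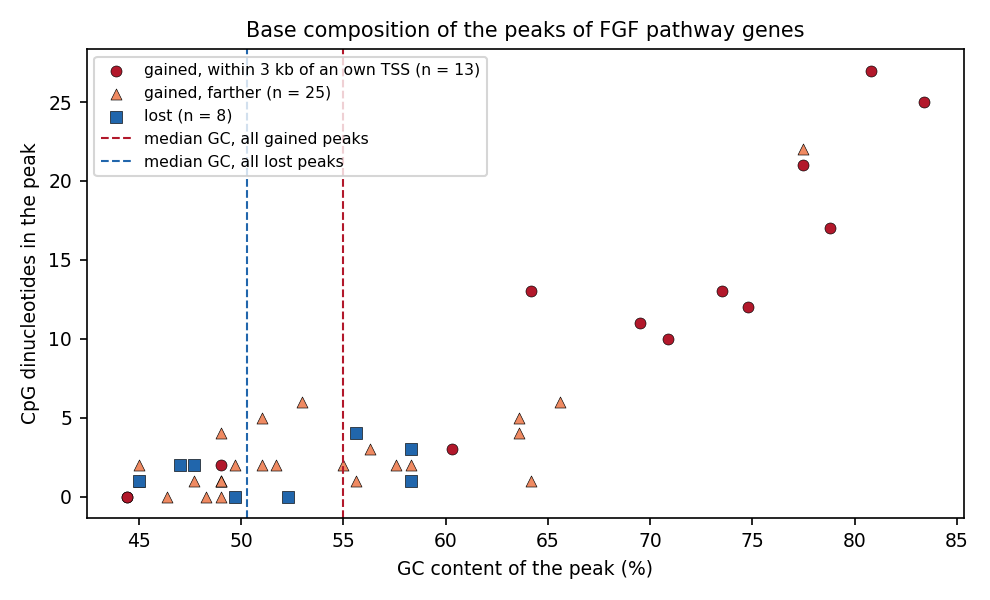
CpG dinucleotides per peak against GC content in percent for the gained peaks within 3 kb of an own TSS (circles), the other gained peaks (triangles) and the lost peaks (squares). Dashed lines are the median GC of all gained (55.0%) and all lost peaks (50.3%). The start-site peaks with 10 or more CpG stand to the upper right with 1 distal peak, that of *Fgfr3*, and *Fgf2* and *Frs2* coincide at 44.4% GC and 0 CpG.

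Exact motif matches on both strands were counted in each peak. The KLF/SP motif GGGCGGG was in 11 of the 38 gained peaks (28.9%) and in 15.8% of all gained peaks. It was in 7 of the 13 at own start sites (53.8%), and in 39.5% of all gained peaks within 1 kb of a coding TSS. The 7 were at *Fgf8*, *Fgf11*, *Fgf12* (both peaks), *Fgf13*, *Fgfr3* and *Fgfr4*. Among motifs of factors that act in the heart, AGATAA of GATA factors was in 3 of 38 (7.89%, beside 11.1% of all gained peaks) and TNAAGTG of NKX2-5 in 3 (7.89%, beside 6.87%). ACATTCC of TEAD was in 3 (7.89%, beside 3.76%) and AGGTGTG of TBX factors in 2 (5.26%, beside 5.19%). TGANTCA of AP-1 was in 3 (7.89%, beside 5.08%) and CCAATCA of NFY in 5 (13.2%, beside 11.8%). The E-box CAGCTG was in 5 (13.2%, beside 13.2%) and CCGGAAG of ETS factors in 1 (2.63%, beside 2.12%). Degenerate motifs of SRF were matched in 2 (5.26%, beside 2.46%), and of MEF2 and CTCF in 0, beside 3.26% and 65 of the 12991 peaks. No test was run on these counts. Of the 8 lost peaks, 2 held a GATA match (*Fgf10* and *Fgfr2*), beside 12.2% of all lost peaks. An E-box was in 2 (*Fgf7* and *Fgf10*), beside 15.4%, and an NKX2-5 match in 1 (*Fgf7*), beside 9.91%. A match shows only that these letters are present.

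Other genes of the pathway were examined by the same rule, as 65 genes in 5 lists. Gained peaks were found at 43 of the 65, beside 37.4% of all coding genes, and lost peaks at 14, beside 10.8%. Gained peaks within 3 kb of a TSS were found at 8 of the 65, close to the 12.4% of all coding genes. Genes listed under negative feedback, which include *Nf1* and *Lzts1*, had gained peaks at 9 of 10 genes and a lost peak at 1. Only 2 of the 10 had a gained peak within 3 kb of a TSS. Among them *Dusp4*, an ERK phosphatase, had 5 gained peaks, all 31014 to 108016 bp from its start site. *Il17rd*, which encodes the FGF antagonist SEF, had 4 gained and 1 lost. Targets and effectors had gained peaks at 8 of 10 and lost peaks at 3 (*Etv5*, *Isl1* and *Mef2c*). *Etv4* and *Etv5*, ETS factors induced by FGF signalling, had 3 gained peaks each, and *Etv5* also had 2 lost peaks. The *Etv4* peak 18 bp from its start scored 241.5, above 94.7% of gained peaks. Heparan sulfate proteoglycans and their enzymes had gained peaks at 12 of 18 genes and lost peaks at 6. Coreceptors and binding proteins had 6 of 10 and 3, and the adaptors and RAS-MAPK cascade 8 of 17 and 1, the share nearest to the 37.4% of all coding genes.

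Expression was not measured in these files, so the cell types could be viewed only through peaks at marker genes, to be read beside the 37.4% of all coding genes with a gained and the 10.8% with a lost peak. Of 8 cardiomyocyte markers 6 had a gained and 1 a lost peak, of 8 endocardial and endothelial markers 6 and 3, of 6 mesenchymal markers 5 and 3, and of 6 epicardial markers 3 and 4. Like the epicardial list, the 8 erythroid markers had more genes with a lost than with a gained peak, with 1 gained and 5 lost. Of the erythroid markers 3 had a lost peak within 3 kb of a start site, beside 1.24% of all coding genes, and no other marker list had one. Gained peaks within 3 kb were found at 3 epicardial, 3 mesenchymal, 2 cardiomyocyte, 1 endocardial or endothelial, 1 pharyngeal or second heart field and 0 erythroid markers, beside 12.4% of all coding genes. All 6 markers of the pharyngeal region and second heart field had a gained peak and 2 (*Fgf10* and *Isl1*) a lost peak, and that list includes *Fgf8* and *Fgf10* themselves. Whether a change in the mix of cells had a part in the peaks of the FGF genes was not tested.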

How the data were processed

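ATAC-seq reads of 8 pools of E10.5 hearts were processed by the authors, who mapped them to mm10 (BWA-MEM), used HOMER 4.10.3 to call peaks, kept differential peaks at a 2-fold limit and annotated them with ChIPseeker 1.20.0. The deposited lists give 1 score per peak, pooled over a genotype. What the score measures and its scale are not given in the sources used here, so scores were compared only within a list, as the percentage of the list below. No column of samples was left unmapped, because the lists hold none. Every peak has one width except 1 lost peak of 131 bp.

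Peaks were tied to genes with Python 3.11.15, using all start sites of 21938 protein-coding genes of GENCODE M21 on the 21 chromosomes. Distances run from the edge of a peak, and are 0 where it covers the site. Wilson intervals (95%) came from scipy 1.17.1. Sequences, soft-masking and motif matches were read from GRCm38.p6, and assignment and motif search were tested on simulated data.

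The genes and lists were chosen with earlier results of these data known. Genes described one by one were those with 3 or more peaks, with a peak within 3 kb of a start site or with a lost peak, and *Fgf9*; the others were described with their family. No test between genotypes was possible without values per sample. Sequences of the lost peaks are not reported here.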

Additional observations from a re-analysis of the deposited data

How the results depend on the processing

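Counts here are by the rule as written, with Fgfr2-217 unless stated. The shares of all coding genes under the alternative settings are not reported here, so the values below show only how the FGF counts moved. The count of FGF genes with a gained peak was 22 and stayed within 1.5 times of that under its 7 alternatives (16 to 22). So did, under theirs, the 12 genes with a gained peak within 3 kb of a start site (10 to 16) and the 34.9% of their 63 gained peaks near any TSS (30.2% to 43.9%). The 7 genes with a lost peak became 3 when only the 10 kb window was used and 4 when only peaks at or above the median score of the list were kept. The 63 gained peaks became 36 by the nearest coding TSS only, 41 at or above the median score, and 38 without transcript Fgfr2-217. The 13 lost peaks became 7 by the nearest coding TSS only, 8 by the 10 kb window only, 7 at or above the median score, and 8 without Fgfr2-217. The choices made after seeing the data were to leave out Fgfr2-217 and to leave out peaks over 50% soft-masked. The second gave 21 genes and 60 peaks for the gained list, and 6 genes and 11 peaks for the lost list. No paired analysis was possible because the lists hold no value per sample, although the samples of both genotypes carry the numbers 1 to 4. The lists hold only peaks past the 2-fold limit, so a gene without a listed peak may still be accessible in both genotypes, and smaller differences were not visible. With 8 lost peaks, the shares of that list are imprecise.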
